A study of Mus musculus with 3 samples.

Results

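The collagen genes were followed across 3 bead arrays of mouse cardiomyocyte preparations, 1 each for embryonic, neonatal and adult hearts. Members were the probes whose file symbol starts with Col and a digit, which gave 88 probes and 41 symbols among the 46632 probes of the array. One of these symbols, Col4a3bp, stands for a ceramide transfer protein that is no collagen, and its 4 probes were set aside. The remaining 84 probes read 40 collagen genes, of 20974 genes that could be named. By class these were 11 fibrillar, 6 basement membrane, 3 type VI and 20 other collagen genes. All samples carried the strain label eGFP α-MHC on DBA, which names the cardiomyocyte gene Myh6 (α-MHC) with a green fluorescent reporter. The embryonic sample was from embryonic day 11 to 12, the neonatal sample from postnatal day 3 to 4 and the adult sample from mice of 10 weeks or older. Hearts were dissociated with an enzyme blend and RNA from several hearts was pooled within a sample, so each age is a single pool and a single array. The sources used here do not state how the cells were gated.

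Collagens are matrix proteins in which 3 chains wind into a triple helix. Fibrillar collagens, chiefly types I and III in the heart, assemble into the tensile fibrils of the interstitium and are made mainly by fibroblasts. Type IV chains form the sheet of the basement membrane around muscle and vessel cells, type VI forms beaded filaments next to that sheet, and the other types decorate fibrils, form lattices or span the cell membrane. Several collagen genes lie next to each other in the genome. In the RefSeq table of assembly GRCm38.p6, Col4a1 and Col4a2 on chromosome 8 and Col4a6 and Col4a5 on chromosome X are neighbours that start head to head. Col4a4 and Col4a3 on chromosome 1 are neighbours whose spans overlap, Col6a2 and Col6a1 lie in a row on chromosome 10, and Col3a1 is followed by Col5a2 on chromosome 1.

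Detected means a detection p under 0.01, which 14066 embryonic (30.2%), 15355 neonatal (32.9%) and 14115 adult probes (30.3%) passed. The 88 probes were read from a median of 34.5, 35.0 and 35.5 beads in the same order. Cardiomyocyte markers, in the same order, were detected in 14, 14 and 11 of 14. In the adult array Myh6, Nkx2-5 and Ttn were not detected. The markers' summed raw signal was 284151.6, 165908.4 and 4962.6, so the array labelled adult carried little cardiomyocyte signal. Fibroblast markers, a list with no collagen in it, were detected in 7, 14 and 14 of 15 and summed to 35022.3, 198912.2 and 144657.5. These sums were not normalised between arrays, whose median raw signals were 72.2, 77.6 and 57.3. Tcf21 was the fibroblast marker not detected on any array. The part of cell composition in the differences below was not tested, and in pooled RNA more fibroblasts and more collagen RNA per fibroblast cannot be told apart.

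Levels are given as log2 normalised signal and differences as the log2 level of one array minus that of another. A gene is called higher or lower where this difference was at least 1 (2-fold) and at least 1 array of the pair detected it. Where only 1 array detected it, the dim side was set to the lowest level detected on that array and the fold is a lower bound, written as at least. The value after ± is the standard error from the spread between beads, which leaves out the variation between mice and preparations. No test between ages was possible. The comparisons share arrays, and each is given by its own values.

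Collagen genes were detected more often after birth: 16 of 40 embryonic, 27 neonatal and 26 adult (40.0%, 67.5% and 65.0%). For all named genes these shares were 43.4%, 47.4% and 44.4%. Fibrillar genes were detected in 4, 8 and 7 of 11, basement membrane genes in 4, 4 and 6 of 6, and the 3 type VI genes in every array. The other collagens were detected in 5, 12 and 10 of 20. On no array were 8 of the 40 detected, namely Col11a1, Col11a2, Col10a1, Col13a1, Col19a1, Col23a1, Col25a1 and Col28a1.

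**Figure D1:**
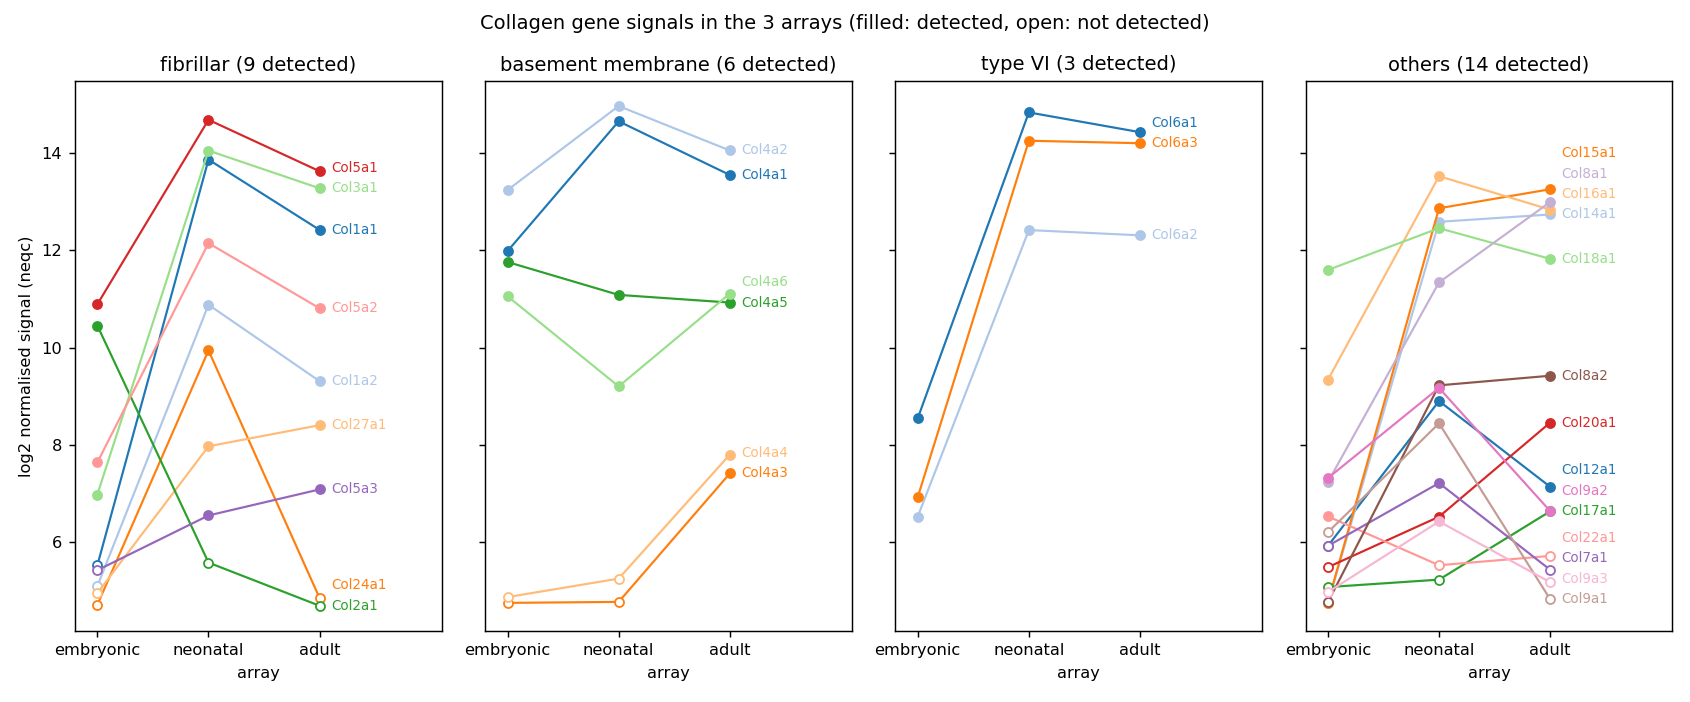
Log2 normalised signal (y axis) of each detected collagen gene in the embryonic, neonatal and adult array (x axis), in a panel per class. Each line is 1 gene read by its brightest probe, filled points are detected and open points are not. Type VI genes lie between 6.53 and 8.55 in the embryonic array and between 12.42 and 14.84 in the neonatal array, Col2a1 runs the other way, and the type IV genes do not share a course.

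Type I collagen, the main fibril former, was read by Col1a1 for its α1 chain and Col1a2 for its α2 chain. Col1a1 was not detected in the embryonic array (5.53) and stood at 13.87 (neonatal) and 12.42 (adult) after birth. It was at least 193-fold higher in the neonatal than in the embryonic array, and lower in the adult than in the neonatal array by 1.45 ± 0.10 on the log2 scale. Col1a2 followed the same course, with levels of 5.10, 10.89 and 9.31. It was not detected in the embryonic array. The neonatal level was at least 24.4-fold above it, and the adult level 2.97-fold below the neonatal one (-1.57 ± 0.09).

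Type III collagen, which forms thin fibrils with type I, is made of a single chain, Col3a1. Its levels were 6.98, 14.05 and 13.28, detected on every array. The neonatal array exceeded the embryonic array by 7.07 ± 0.16, and the adult array lay below the neonatal array by less than the 2-fold rule (-0.78 ± 0.10). The adult Col3a1 level was 78.5-fold above the embryonic one. Type V chains are built into type I fibrils and set their width. Col5a1 was already well above background in the embryonic array, at 10.89, and stood at 14.69 and 13.63 in the neonatal and adult arrays. Col5a2 was at 7.64, 12.15 and 10.81. By its brightest probe its step between the embryonic and neonatal arrays was larger, 4.51 ± 0.11 against 3.79 ± 0.08 for Col5a1. A dimmer Col5a2 probe gave 3.46 ± 0.18 over an undetected embryonic value, so the order of the steps depends on the probe. Both genes were lower in the adult than in the neonatal array, by -1.34 ± 0.08 for Col5a2 and -1.06 ± 0.09 for Col5a1. Col5a3, the chain gene of a rarer type V form, was at 5.43 (not detected), 6.55 and 7.09 and passed the 2-fold rule in no pair. Its differences from the embryonic array are bounds.

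Col2a1 ran against the other fibrillar genes. This chain of the cartilage collagen type II was at 10.46 in the embryonic array and was not detected in the neonatal (5.59) or the adult array (4.70). It was at least 23.0-fold lower in the neonatal and at least 18.4-fold lower in the adult than in the embryonic array. A second Col2a1 probe gave the same picture, with raw signals of 1393.9, 82.8 and 50.6, while the remaining Col2a1 probe was detected nowhere. The chondrocyte markers Matn1, Matn3 and Hapln1 were detected on no array. Another chondrocyte marker, Comp, was not detected in the embryonic array and had raw signals of 62.1, 522.6 and 2877.9. Acan, for the cartilage proteoglycan aggrecan, had raw signals of 181.9, 434.7 and 124.7, detected on each. The transcription factor gene Sox9, an activator of Col2a1 in cartilage, had raw signals of 217.8, 9566.3 and 3011.2 and so was highest where Col2a1 was not detected. Col11a1 and Col11a2, whose chains join type II fibrils, were detected by none of their 5 and 2 probes.

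Col24a1, a fibrillar collagen known from developing bone and cornea, was seen in the neonatal array alone. Its levels were 4.72 and 4.85 in the embryonic and adult arrays, where it was not detected, and 9.95 in the neonatal array, at least 12.7-fold above the embryonic and at least 12.9-fold above the adult array. Col27a1, a fibrillar collagen of cartilage, was not detected in the embryonic array (4.96) and stood at 7.98 and 8.41 after birth. All 3 of its probes were higher in the neonatal and adult arrays than in the embryonic array.

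Type VI collagen had the highest class median between the embryonic and neonatal arrays, 6.29, with 0 bounds among its values. Since 6 of 9 fibrillar and 9 of 13 other values are bounds, its rank above those classes is not settled. Col6a1, Col6a2 and Col6a3 encode the chains of its trimer. Col6a3 was at 6.93, 14.26 and 14.21, higher in the neonatal than in the embryonic array by 7.33 ± 0.11. Col6a1 was at 8.55, 14.84 and 14.43, with a step of 6.29 ± 0.07. Col6a2 was at 6.53, 12.42 and 12.31, with a step of 5.89 ± 0.12. The corresponding folds were 161 for Col6a3, 78.2 for Col6a1 and 59.4 for Col6a2. Between the neonatal and adult arrays none of the type VI genes reached 2-fold by its brightest probe. Col6a3 differed by -0.05 ± 0.08 and Col6a2 by -0.11 ± 0.09, near the error between beads, and Col6a1 by -0.41 ± 0.05. A dimmer Col6a3 probe, detected in both arrays, gave 0.88 ± 0.13, and the remaining one 1.02 over an undetected neonatal value. The other Col6a1 probes gave -0.28 and 0.18. With arrays centred on their medians in place of quantile normalisation, Col6a1 and Col6a3 turned to 0.41 and 0.54 above the neonatal array. The sign of the Col6a1 and Col6a3 differences thus depends on the scaling and on the probe. Raw signals of the brightest Col6a1 probe (30445.5 neonatal) lay near the highest of the array (37149.0). Whether it was saturated was not tested.

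The 6 basement membrane genes did not share a course, and of the neighbouring type IV pairs Col4a3 and Col4a4 alone had the same one by the 2-fold rule. Col4a1 and Col4a2 encode the chains of the common type IV network. Col4a1 was at 11.99, 14.66 and 13.55, so it was higher in the neonatal than in the embryonic array by 2.67 ± 0.09 and lower in the adult than in the neonatal array by 1.10 ± 0.11. Col4a2 was at 13.24, 14.97 and 14.06, with differences of 1.73 ± 0.08 and -0.91 ± 0.09. Its neonatal raw signal of 33498.0 was again near the top of that array. Both genes were detected in every array, and the step to the adult array passed the 2-fold rule for Col4a1 alone.

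Col4a3 and Col4a4, whose chains join the α5 chain in the basement membranes of kidney, lung and ear, were detected in the adult array alone. Col4a3 was at 7.42 there, against 4.76 and 4.78 undetected, and Col4a4 at 7.81, against 4.88 and 5.26. Their adult raw signals were 150.3 and 180.2, which is dim, and the adult levels were at least 2.80-fold and 3.67-fold above the neonatal array. Col4a5 and Col4a6 made the remaining pair and differed in course. Col4a5 was at 11.76, 11.09 and 10.93 and passed the 2-fold rule in no pair by its brighter probe, whose neonatal minus embryonic difference was -0.68 ± 0.10. Its dimmer probe differed by -1.32 ± 0.06 over the same arrays. Col4a6 was at 11.06, 9.21 and 11.11. It was thus 3.61-fold lower in the neonatal array (-1.85 ± 0.07), with the adult level back at the embryonic one (0.05 ± 0.07), and its second probe, not detected in the neonatal array, gave -2.49 and -0.07. Col4a6 was the only collagen gene 2-fold lower in the neonatal array than in both others, a course seen in 1.31% of all detected genes.

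Among the other collagens, the fibril-associated types XIV and XVI and the multiplexin type XV were higher in both later arrays than in the embryonic array. Col14a1, which regulates fibril growth, was at 4.75 (not detected), 12.59 and 12.74 so its neonatal level was at least 79.6-fold above the embryonic one. Col15a1, of the zone between basement membrane and interstitium, was at 4.76 (not detected), 12.87 and 13.26, at least 96.6-fold higher. Col16a1 was at 9.34, 13.53 and 12.84, higher in the neonatal array by 4.19 ± 0.08. Col18a1, the multiplexin that gives rise to endostatin, was bright on every array at 11.60, 12.46 and 11.83 and stayed under 2-fold throughout. Of the multiplexins, the embryonic array therefore detected Col18a1 but not Col15a1.

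Type VIII collagen forms a short-chain lattice of vessels and endothelium. Col8a1, with raw signals of 195.7, 3534.1 and 4834.5, was higher at each step, by 4.10 ± 0.13 and then by 1.65 ± 0.09. Its partner Col8a2 was at 4.77 (not detected), 9.23 and 9.43, level between the neonatal and adult arrays (0.20 ± 0.12). Both Col8a1 probes were higher in the adult array, by 1.48 and 1.65.

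Type IX chains coat type II fibrils in cartilage, yet Col9a1 and Col9a2 were highest in the neonatal array, where Col2a1 was not detected. Col9a2 was at 7.32, 9.17 and 6.64, higher in the neonatal than in the embryonic array by 1.85 ± 0.11 and lower in the adult than in the neonatal array by 2.53 ± 0.12. Col9a1 was at 6.21, 8.45 and 4.83 and was detected by its brightest probe in the neonatal array alone. By that probe its neonatal level was at least 4.51-fold above the embryonic and at least 4.56-fold above the adult one. A dimmer Col9a1 probe was detected in the embryonic array too, with raw signals of 122.5, 340.1 and 56.9. Its neonatal level was 2.74-fold above the embryonic one, so the bound of 4.51-fold holds for the brightest probe only. Col9a3 was detected in the neonatal array alone at 6.43 and stayed under 2-fold by its bound. Col12a1, of tendon and stressed matrix, was also highest in the neonatal array, at 5.93 (not detected), 8.91 and 7.14. This rests on 1 of its 3 probes, as the others were detected nowhere.

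The remaining members were dim. Col20a1 was at 5.49 (not detected), 6.53 and 8.46, higher in the adult than in the neonatal array by 1.93 ± 0.11. Col7a1, of the anchoring fibrils of skin, was detected in the neonatal array alone at 7.22, Col17a1 in the adult array alone at 6.64 and Col22a1 in the embryonic array alone at 6.54. The bounds of these 3 genes stayed under 2-fold.

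**Figure D2:**
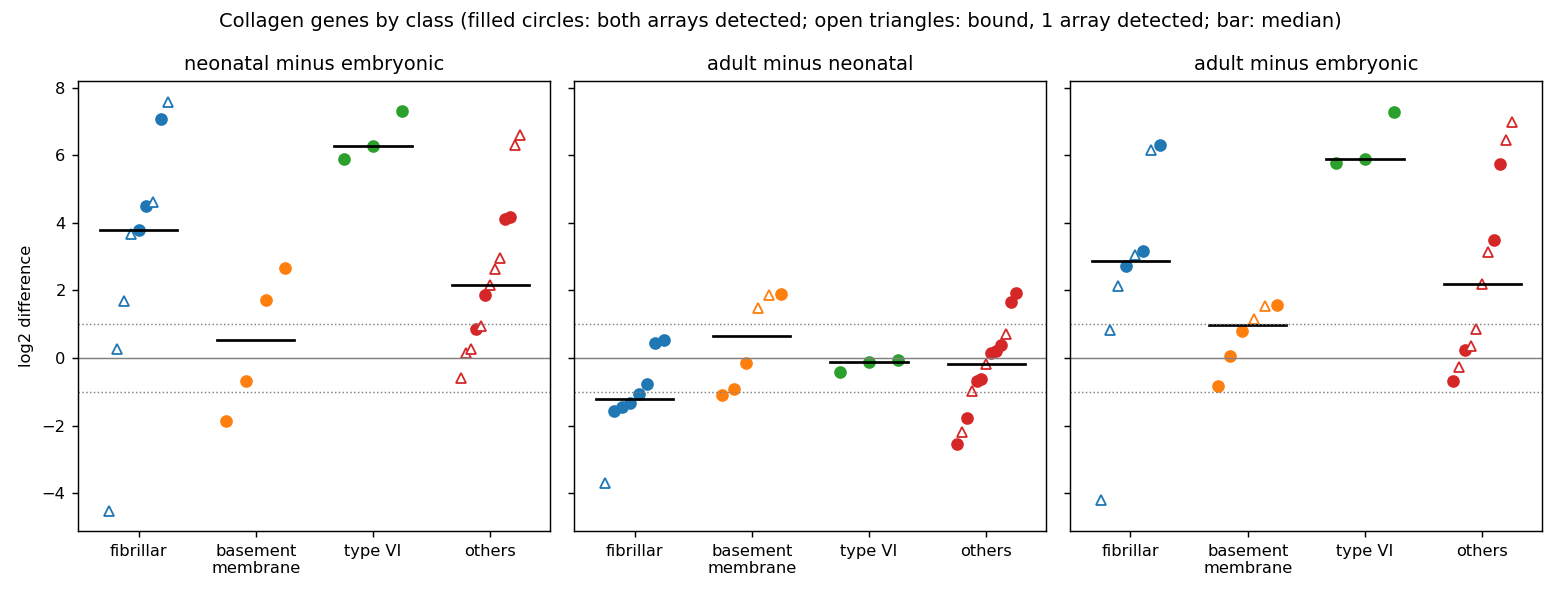
Log2 difference (y axis) of each measured collagen gene by class (x axis) in the 3 pairs of arrays. Filled circles have both arrays detected, open triangles are bounds with 1 array detected, bars are class medians and dotted lines mark 2-fold. In neonatal minus embryonic the type VI genes lie between 5.89 and 7.33 and the basement membrane genes between -1.85 and 2.67.

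Counted by the 2-fold rule, 20 of 29 measured collagen genes were higher in the neonatal than in the embryonic array and 2 were lower, against 17.6% and 17.2% of all measured genes. The 2 lower genes were Col2a1 and Col4a6. Since 15 of these values are bounds that had to lie on one side, the same count was made over genes detected in both arrays, where 11 of 14 were higher (13.9% of all such genes) and 1 lower (17.7%). Over the full 40 genes with no detection filter, 24 were higher (11.3% of all genes) and 3 lower (10.1%), undetected values included. By class the higher genes were 7 of 9 fibrillar, 2 of 4 basement membrane, 3 of 3 type VI and 8 of 13 others. Class medians were 3.79, 0.53, 6.29 and 2.17, beside -0.05 for all measured genes.

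Between the neonatal and adult arrays, 9 of 30 measured collagen genes were lower in the adult array and 5 higher, against 10.7% and 11.1% of all measured genes. Among genes detected in both arrays, 7 of 23 were lower (9.29% of all such genes) and 3 higher (10.8%). With no filter 11 of 40 were lower (7.16% of all genes) and 6 higher (6.37%). The lower genes were 5 of 8 fibrillar ones (Col1a1, Col1a2, Col5a1, Col5a2 and Col24a1), 1 of 6 basement membrane ones (Col4a1) and 3 of 13 others (Col9a1, Col9a2 and Col12a1). The higher genes were Col4a3, Col4a4, Col4a6, Col8a1 and Col20a1. The fibrillar median was -1.20, the type VI median -0.11 and the median of all measured genes -0.06. Median centring left 4 of 8 fibrillar genes lower, as Col5a1 then differed by -0.59, and Col4a1 by -0.64. That scaling put 1601 of all measured genes higher (15.4%) and 772 lower (7.42%) in the adult array, in place of 1156 and 1111.

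Between the embryonic and adult arrays, 18 of 28 measured collagen genes were higher in the adult array and 1, Col2a1, was lower, against 21.4% and 22.9% of all measured genes. Among those detected in both arrays 9 of 14 were higher (17.3% of all such genes) and 0 lower (22.4%). With no filter 21 of 40 were higher (13.3% of all genes) and 2 lower (14.2%). The class medians were 2.89 for fibrillar, 0.98 for basement membrane, 5.88 for type VI and 2.19 for other collagens. Col6a3 and Col15a1 had the largest values, with the adult level 155-fold and at least 127-fold above the embryonic one. Col14a1 was at least 88.4-fold higher. As bounds are lower limits, the order of these genes is not settled.

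Over all 3 arrays, 9 of the 32 detected collagen genes stood 2-fold above both other ages in the neonatal array (28.1%), a course of 2.55% of all detected genes. These were Col1a1, Col1a2, Col5a1, Col5a2 and Col24a1 of the fibrillar class, Col4a1, and Col9a1, Col9a2 and Col12a1. Another 9 were 2-fold higher in the neonatal and the adult array than in the embryonic array with under 2-fold between them, a course of 9.15% of all detected genes. They were Col3a1, Col27a1, all 3 type VI genes, Col14a1, Col15a1, Col16a1 and Col8a2. Another 4 genes stood 2-fold above both other ages in the adult array (7.85% of all detected genes), namely Col4a3, Col4a4, Col8a1 and Col20a1. Col2a1 alone was 2-fold higher in the embryonic array than in both others, with no 2-fold call between those (9.75%). In 7 genes no array was called 2-fold above another (47.4% of all detected genes). Of these, Col5a3, Col7a1, Col9a3, Col17a1 and Col22a1 were judged at least in part by lower bounds, which cannot show that a gene was level. Col4a2, 2-fold higher in the neonatal than in the embryonic array with the adult array under 2-fold from both, had none of these courses (15.5%). By the 2-fold rule no collagen gene (0) was lower in the adult array than in both earlier ones with those under 2-fold apart (3.5%). The rule likewise found none lower at each step (2.98%).

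Sequence just upstream of the start was compared for genes of these courses. The first pair below are fibrillar genes with a steep step after the embryonic stage, Col6a2 is the type VI gene with a motif match, and Col4a6 and Col4a5 are a head-to-head pair, neither of them higher in the neonatal array. The Col4a6 and Col4a5 windows are shortened to 231 and 201 bases, ending where an annotated gene span begins, and Col6a2 has a second window that is not shown. The sequences are RefSeq's, build GRCm38.p6, and capitals mark matches on either strand to 3 promoter motifs, the TATA box (TATAAA), the CCAAT box (CCAAT) and the GC box (GGGCGG).
Col1a2 (chr6:4505368-4505617, plus strand): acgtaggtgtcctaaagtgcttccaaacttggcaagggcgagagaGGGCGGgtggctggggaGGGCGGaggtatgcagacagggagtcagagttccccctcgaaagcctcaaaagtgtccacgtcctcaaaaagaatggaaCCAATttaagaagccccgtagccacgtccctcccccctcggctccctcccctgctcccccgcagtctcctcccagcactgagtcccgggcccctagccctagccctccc
Col3a1 (chr1:45311288-45311537, plus strand): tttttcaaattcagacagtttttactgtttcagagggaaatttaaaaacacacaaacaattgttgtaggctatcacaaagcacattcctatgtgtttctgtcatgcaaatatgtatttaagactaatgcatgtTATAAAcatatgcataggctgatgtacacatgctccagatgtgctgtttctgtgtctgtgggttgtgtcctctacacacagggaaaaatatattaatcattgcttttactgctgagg
Col6a2 (chr10:76623631-76623880, minus strand): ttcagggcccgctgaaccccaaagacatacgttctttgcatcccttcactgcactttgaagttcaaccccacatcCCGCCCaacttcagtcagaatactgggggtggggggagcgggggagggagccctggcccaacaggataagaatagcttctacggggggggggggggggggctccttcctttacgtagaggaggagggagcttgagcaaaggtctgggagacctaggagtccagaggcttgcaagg
Col4a6 (chrX:141474096-141474326, minus strand): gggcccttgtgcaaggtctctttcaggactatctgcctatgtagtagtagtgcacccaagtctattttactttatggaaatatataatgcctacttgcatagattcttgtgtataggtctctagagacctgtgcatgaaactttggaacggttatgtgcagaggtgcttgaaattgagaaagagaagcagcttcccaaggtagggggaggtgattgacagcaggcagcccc
Col4a5 (chrX:141475169-141475369, plus strand): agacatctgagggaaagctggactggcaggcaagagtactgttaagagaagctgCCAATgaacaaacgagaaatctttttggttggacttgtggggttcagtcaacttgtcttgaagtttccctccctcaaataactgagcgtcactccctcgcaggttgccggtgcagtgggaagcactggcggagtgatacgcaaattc
Col1a2 held 2 GC boxes and 1 CCAAT box and no TATAAA, whereas Col3a1 held 1 TATA box and neither of the others. The Col6a2 window shown held 1 GC box and its second window 3, while the windows of Col6a1 and Col6a3 held none of the motifs. The shortened Col4a5 window held 1 CCAAT box and the shortened Col4a6 window no match. Each of these held 1 GC box more over its full 250 bases, which are the windows counted next. Windows of 250 bases before the start were in the table for 32 of the 40 genes, 35 windows in all. The GC box was in 19 of the 35 (54.3%) and in 32.7% of the 32851 windows of all genes. The CCAAT box was in 12 (34.3%, against 33.8%) and the TATA box in 5 (14.3%, against 12.4%). Overlapping matches were each counted, and a match is a description of letters, not of binding.

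Several probes read most collagen genes, and not all of them were detected. Of 26 genes with several probes, 13 had at least 2 probes detected in some array. In each of those 13 the detected probes differed in the same direction between the neonatal and embryonic arrays. Between the adult and neonatal arrays the direction was shared in 10 of 13, the exceptions being Col4a5, Col6a1 and Col6a3. In all, 48 of the 84 collagen probes were detected somewhere. The size of a step depended on the probe. For Col6a3 the brightest probe gave 7.33 and the next 1.40, and the remaining probe was detected in the adult array alone. For Col3a1 the brighter and the dimmer probe gave 7.07 and 4.78. Col24a1 was read at raw signals of 1387.3 and 1125.6 by its bright probes in the neonatal array, while its other 2 probes were detected nowhere. The second Col1a1 probe was detected on no array, with raw signals of 62.1, 62.7 and 42.7. Which exons or transcripts these probes read was not examined.

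**Figure D3:**
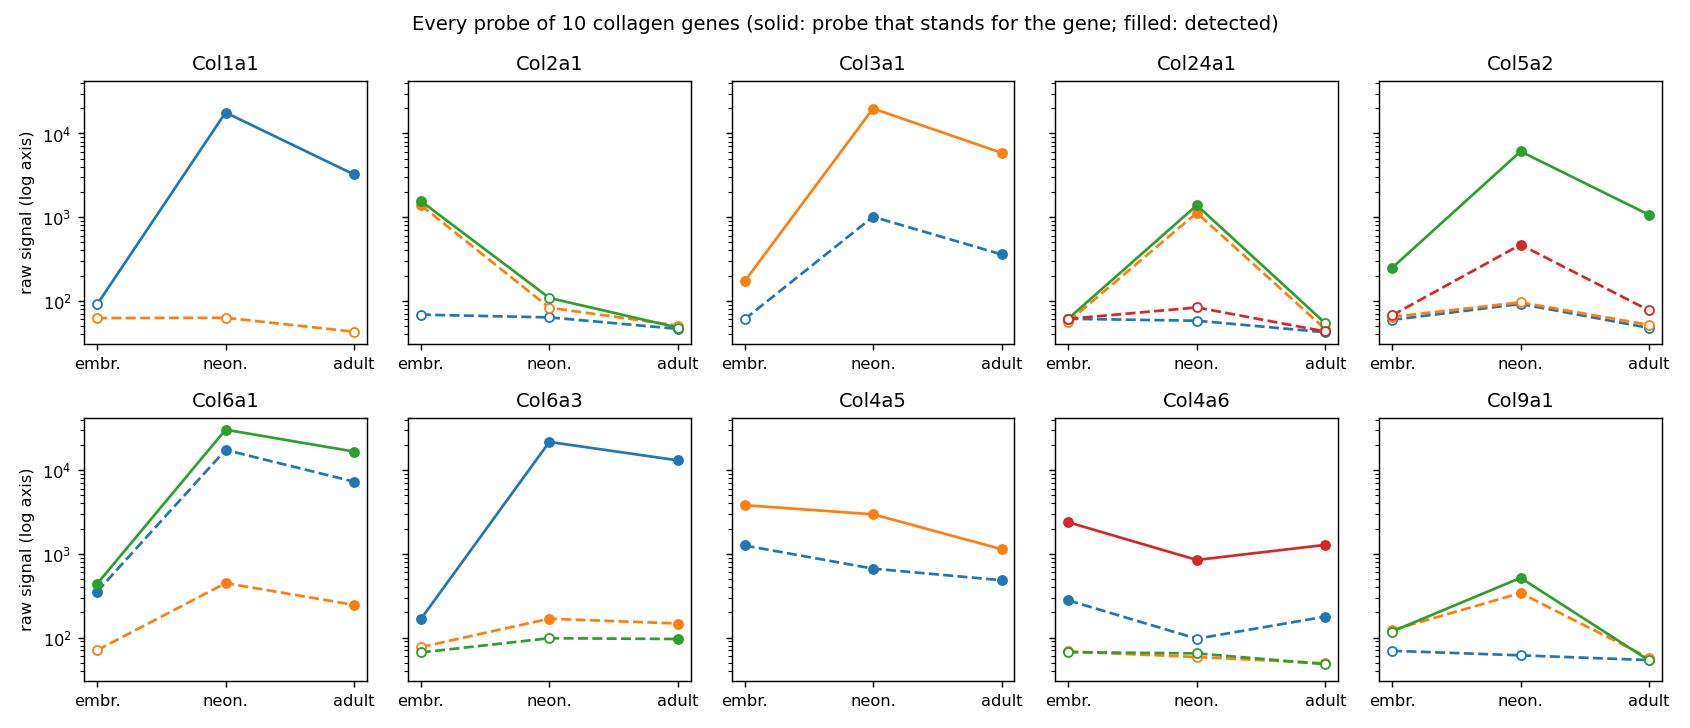
Raw signal (log axis) of every probe of 10 collagen genes in the embryonic, neonatal and adult array. Solid lines are the probe that stands for the gene, dashed lines its other probes, filled points are detected. The Col24a1 and Col2a1 panels show bright and undetected probes of the same gene, with neonatal raw signals for Col24a1 from 57.8 to 1387.3.

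Genes that build, bind and cut collagen were set beside the collagens, from lists drawn up with earlier results of these arrays known. Of 25 measured genes of collagen assembly and processing, 16 were higher and 1 lower in the neonatal than in the embryonic array, against 17.6% and 17.2% of all measured genes. Their median was 1.47. These include values against an undetected array. Adamts2, the procollagen N-proteinase, was at least 168-fold higher. Lox, the lysyl oxidase that starts crosslinking, was higher by 6.84 ± 0.12 and P3h3, a prolyl 3-hydroxylase, by 5.61 ± 0.14. The lower gene was Adamts3, at -1.26 ± 0.14. The chaperone gene Serpinh1 (HSP47), with raw signals of 18150.2, 27677.0 and 12211.8, stayed under 2-fold at 0.80 ± 0.09, as did Crtap at 0.05 ± 0.07. In the adult array 5 of 26 measured genes of this list were higher than in the neonatal array and 3 lower, against 11.1% and 10.7% of all measured genes, so the lower share was near that of all genes. Pcolce2, an enhancer of procollagen C-proteinase, was higher by 3.55, and Lox, P4ha3 and Fkbp10 were lower, at -1.80, -1.49 and -1.05.

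Fibril-binding matrix proteins had 11 of 12 measured members higher in the neonatal than in the embryonic array and 0 lower. The shares of all measured genes were 17.6% and 17.2%, and the median of the list was 5.19. Of its 12 values 9 are bounds with the embryonic array undetected, which could not be called lower. Dpt, Prelp and Lum were at least 226-fold, 173-fold and 151-fold higher, and 3 members of this list (Dcn, Dpt and Lum) are fibroblast markers too. In contrast to the fibrillar collagens, their median between the neonatal and adult arrays was 0.48, with Comp higher by 3.81 and Sparc and Aspn lower, at -1.69 and -1.17. Collagen-cleaving proteases were higher in 5 of 6 measured members (17.6% of all measured genes), with 3 of the 6 values being such bounds. The largest values were the gelatinase Mmp2 at 7.55 ± 0.11, the fibroblast protease Fap at a bound of 5.03 and the cathepsin gene Ctsk at 4.81 ± 0.13. Mmp8, a neutrophil collagenase, was detected on no array. Among receptors 4 of 6 measured members were higher, beside the same 17.6%, led by the endocytic receptor Mrc2 at 5.09 ± 0.13, the integrin gene Itga10 at 2.44 ± 0.11 and the discoidin receptor Ddr2 at a bound of 2.36. Ddr1 went the other way at -0.73 ± 0.07, under 2-fold. Itga11, the fibroblast collagen integrin, was higher again in the adult array, by 3.17.

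Partners of type IV collagen in the basement membrane were higher in the neonatal array in 8 of 12 measured members, against 17.6% of all measured genes, and the list's median was 1.65. Nid1, for the linker nidogen 1, was higher by 4.85 ± 0.13, Lama2 by 2.77 ± 0.09 and the perlecan gene Hspg2 by 2.27 ± 0.06. Pxdn, the peroxidase that crosslinks type IV collagen, had raw signals of 3226.1, 12972.7 and 1662.0, so that it was higher in the neonatal array by 1.81 ± 0.09 and lower in the adult array, at -1.85. That course resembled Col4a1 in direction at each step.

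**Figure D4:**
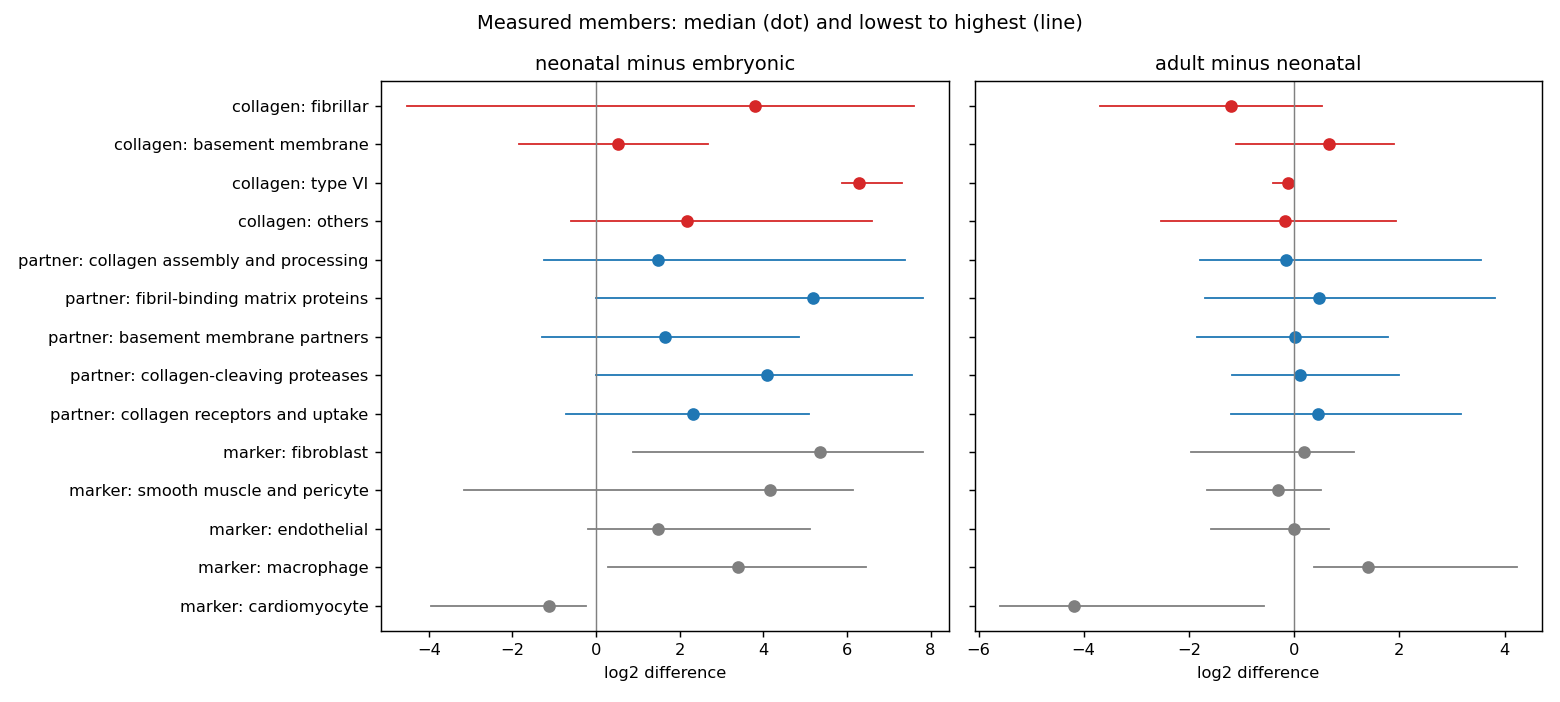
Median (dot) and lowest to highest (line) log2 difference (x axis) of measured members of the collagen classes, partner lists and cell type markers, for neonatal minus embryonic and adult minus neonatal. Fibrillar collagens sit at -1.20 in adult minus neonatal, while fibroblast markers sit at 0.19.

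Fibroblast markers were higher together with most collagen genes in neonatal minus embryonic, and not lower together with the fibrillar genes in adult minus neonatal. Between the embryonic and neonatal arrays, 12 of the 14 measured fibroblast markers were higher, against 17.6% of all measured genes. Their median was 5.36, beside 6.29 for type VI. Of the 14 fibroblast values 7 are bounds, which could not be called lower, so that median rests partly on lower limits. The type VI median holds 0 bounds. Smooth muscle and pericyte markers had a median of 4.15, macrophage markers 3.40 and endothelial markers 1.48, each with bounds among its values. The cardiomyocyte marker median was -1.12. Between the neonatal and adult arrays, the fibroblast median was 0.19 beside -1.20 for the fibrillar collagens. Of the 14 markers Postn was lower at -1.96 and Fbln1 higher at 1.13, against 10.7% and 11.1% of all measured genes. Over the same arrays 13 of 14 cardiomyocyte markers were lower, at a median of -4.19, and 7 of 10 macrophage markers were higher, at a median of 1.40. The smooth muscle and pericyte median was -0.30. Over that pair of arrays the summed raw signal of fibroblast markers went from 198912.2 to 144657.5 and that of the fibrillar collagen genes from 76363 to 18816.3. Type VI genes went from 59484.5 to 32722 on the same scale. These sums were not normalised between arrays, and the median raw signal of all probes was 77.6 neonatal and 57.3 adult. After normalisation the type VI median over this pair was -0.11.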

How the data were processed

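RNA from 3 mouse cardiomyocyte preparations, 1 pool per age, was read on Illumina bead arrays. One deposited table gives raw probe intensity (linear, background not subtracted). Beside it stand, per the file headers, the bead spread, how many beads were read and a detection score, whose complement was read as a detection p. Processed intensity values were deposited by the authors as a second table, made by a method the sources used here do not state. Another deposited table holds ratios of adult to other ages with their natural log, per the file headers. Here neqc of limma 3.58.1 in R 4.3.3 subtracted each array's background, added an offset of 16, quantile normalised the arrays and took log2. Quantile normalisation hides a shift shared by all genes. The bead error was propagated from background-corrected signals.

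Genes were named through RefSeq (GRCm38.p6) by accession for 11877 probes and by symbol for 22852. Probes whose accession and symbol disagreed (134) and probes with no name (11769) did not enter counts of genes. Collagen probes kept the file symbol, and all 22 with a matching accession carried the same name. A gene was read by its brightest probe. Where a dim side lay above the bright side after it was set to the lowest detected level (6.27 embryonic, 5.93 neonatal and 6.26 adult), the difference was taken as 0. Every detected collagen gene is named. From each partner list the 3 members furthest apart between neonatal and embryonic arrays and those against the list's direction are named, except for a result among the basement membrane partners that is not reported here, and the partner and marker genes named beyond these were chosen after their values were seen. The members and lists were chosen with earlier results of these data known. The fold rule was tried on simulated arrays with changed probes of middle brightness, without the step that sets undetected values. Bounds and the dimmest and brightest members were therefore not covered. With 1 array per age no test between ages was made, and the number of arrays limits the precision.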

Additional observations from a re-analysis of the deposited data

How the results depend on the processing

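With 1 array per age nothing could be left out, and no paired analysis was possible because no age has a replicate. Of the counts of collagen genes recomputed over the alternatives, 288 stayed within 1.5 times the reported count and 42 did not. No single collagen gene called 2-fold apart changed sign under the alternatives run, and the cause of the other changes was not tested. No background correction, an offset of 50 and multiplexins counted as basement membrane moved none. Basement membrane genes lower in the adult than in the neonatal array, 1 as reported, were 2 with the authors' processed values and 0 with median centring. In adult minus neonatal, median centring on all probes, chosen after seeing the data, moved the median of all genes to -0.79 (adult minus embryonic -0.62). It put 15 collagen genes lower and 3 higher, with 3 basement membrane genes lower and 6 others lower and 1 higher, and in adult minus embryonic 1 basement membrane gene higher and 1 lower, and 2 collagen genes lower. The mean over probes left 1 other collagen lower in the adult than in the neonatal array. With a detection p under 0.05, and with no detection filter, other collagens had 1 lower in neonatal minus embryonic, 5 lower in adult minus neonatal and 1 lower in adult minus embryonic, where 2 collagen genes were lower. With only genes detected in both arrays, neonatal minus embryonic had 11 higher (3 fibrillar, 3 others) and 1 lower, with 0 fibrillar lower. Adult minus neonatal then had 3 higher, 1 of them basement membrane, and adult minus embryonic 9 higher (3 fibrillar, 1 basement membrane, 2 others) and 0 lower, fewer genes being counted. Under a 4-fold rule, neonatal minus embryonic had 1 basement membrane gene higher and 0 lower and 1 collagen gene lower. Adult minus neonatal had 0 collagen genes higher and 3 lower, with 1 fibrillar lower, 0 basement membrane higher or lower and 0 others higher, and adult minus embryonic had 0 basement membrane higher. Medians in adult minus neonatal that changed sign were type VI at 0.41 (median centring), basement membrane at -0.055 (centring on all probes) and -0.54 (both arrays detected), and others at 0.19 (detection p under 0.05), 0.15 (both arrays detected) and 0.17 (no filter). Dim genes near background, such as Col4a3, Col4a4 and Col20a1, are limited by the signal over background.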

Other observations

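One probe under the file symbol Emid2, whose file synonym is Col26a1, lies outside the members because its symbol does not start with Col. It was singled out after its values were seen. It was detected on every array, with raw signals of 143 embryonic, 7914.7 neonatal and 133 adult. The neonatal level was 60.9-fold above the embryonic one (5.93 ± 0.12) and 42.3-fold above the adult one (-5.40 ± 0.15), and the embryonic and adult levels differed by 0.53 ± 0.17.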
